A study of Mus musculus with 3 samples.

Results

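The gene set described here comprises 10 enzymes that remove reactive oxygen species or maintain reduced glutathione and thioredoxin: Sod1, Sod2, Cat, Gpx1, Gpx4, Prdx1, Prdx6, Txnrd1, Gclm and Nqo1. They were chosen by name, and each name matched 1 row among the 54532 genes of the deposited expression table. Hippocampal RNA was sequenced from 10-month-old C57BL/6 mice of 3 genotypes, with 1 library each. The groups were wild type (WT), PS19, and PS19 mice labelled heterozygous for Zbp1 (PS19 Zbp1+/-). PS19 mice carry a human mutant tau transgene under the mouse prion promoter and develop tau pathology with loss of hippocampal neurons. Zbp1 encodes a sensor of left-handed Z-form nucleic acids. The transgene is shared by both PS19 groups. Neither a Zbp1+/- group without the transgene nor a second library of any genotype was analysed here. The number of mice behind each library, their sex and any batch are not given in the sources used here.

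Superoxide dismutases turn superoxide into hydrogen peroxide, which catalase, glutathione peroxidases and peroxiredoxins then break down. Glutathione peroxidases draw electrons from glutathione, whose synthesis starts with glutamate-cysteine ligase, and most peroxiredoxins draw theirs from thioredoxin, which thioredoxin reductase keeps reduced. Many of these genes are known targets of the transcription factor Nrf2 (gene Nfe2l2), which binds the antioxidant response element and is held back by Keap1. In the brain, astrocytes are a main source of glutathione and of Nrf2-driven antioxidant enzymes.

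Gpx1, Gpx4 and Txnrd1 are selenoproteins, in which a TGA codon that elsewhere ends translation is read as selenocysteine, the catalytic residue. These codons are shown because they set the 3 enzymes apart from the other 7 and tie them to the selenium-handling genes described further on. Each line gives 30 bases of coding sequence from the GENCODE M21 annotation (mouse build GRCm38), with the selenocysteine codon in capitals.
Gpx1, codon 47 of 201: attgagaatgtcgcgtctctcTGAggcacc
Gpx4, codon 73 of 197: gtcaccaacgtggcctcgcaaTGAggcaaa
Txnrd1, codon 498 of 499: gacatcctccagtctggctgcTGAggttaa
The Gpx1 codon lies at chr9:108339451-108339453 in exon 1 of 2, and the Gpx4 codon lies at chr10:80054737-80054739 in exon 3 of 7. The Txnrd1 codon lies at chr10:82896037-82896039 in exon 14 of 14 and is followed by codon 499, ggt, and the stop.

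The promoters were searched for the core of the antioxidant response element, TGACNNNGC, on both strands. RefSeq promoter windows (build GRCm38.p6, 250 bases before to 50 bases after the transcription start) were at hand for 9 of the 10 genes, in 14 windows. Prdx6 had no window. The core was found in 4 of the 14 windows, those of Prdx1, Gclm, Txnrd1 and Sod1, and in 12.4% of 32851 promoters of the same length. Each match is shown with its flanks on the gene's strand, the 9 matching bases in capitals. In all 4 the core reads on the opposite strand, so the capitals are its reverse complement.
Prdx1, chr4:116685456-116685485, plus strand: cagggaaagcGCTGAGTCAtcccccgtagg
Gclm, chr3:122245413-122245442, plus strand: gctcccgggcGCACCGTCAactctcacgag
Txnrd1, chr10:82859104-82859133, plus strand: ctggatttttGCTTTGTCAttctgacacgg
Sod1, chr16:90220696-90220725, plus strand: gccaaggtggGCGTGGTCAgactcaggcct
The match begins 133 bases before the start of Prdx1, 134 before that of Gclm, 92 before that of Txnrd1 and 56 before that of Sod1. In Prdx1 it spells TGACTCAGC, a fully specified form of the same length that 0.454% of the 32851 promoters held. A match of letters is a description and not a measured binding site.

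Levels are given as FPKM, which divides the reads of a gene by its length and by the size of the library. Whole reads were recovered from every value, and totalled between 16400328 and 17109734 per library. The scaling was not per total read: the sizes behind the FPKM values, 17253480 (WT), 17287959 (PS19) and 15826985 (PS19 Zbp1+/-) reads, equalled median-of-ratios size factors computed here from the reads. For Zbp1 the WT library held 5 reads, the PS19 library 91 and the library labelled PS19 Zbp1+/- 0, where the limit of 3 reads allows an FPKM of up to 0.054. A heterozygous animal keeps an intact allele, and the sources used here do not settle that count of 0. The neuronal marker Camk2a was at 346, 348 and 458 FPKM in WT, PS19 and PS19 Zbp1+/-, which does not by itself show the region sampled. The PS19 Zbp1+/- library also had reads in fewer genes, 21408 against 24741 (WT) and 25397 (PS19). Xist had 11062 and 13350 reads in WT and PS19 and 0 in PS19 Zbp1+/-, which was also the library with reads of Y-linked genes (711 of Ddx3y). Relative to PS19, all 10 choroid plexus markers fell short by 2-fold or more in PS19 Zbp1+/-, where 5.16% of 12772 protein-coding genes did. Their summed FPKM was 3438, 2184 and 26.9 in WT, PS19 and PS19 Zbp1+/-, and Slc4a5 was at 0 in the last. Sex and plexus content therefore cannot be told apart from the Zbp1 genotype in any comparison with that library.

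In the plot of levels, PS19 was the highest library and PS19 Zbp1+/- the lowest for 7 of the 10 genes. These were Cat, Gpx1, Prdx1, Prdx6, Txnrd1, Gclm and Nqo1. The other 3, Sod1, Sod2 and Gpx4, were not highest in PS19. For Gpx1, Txnrd1, Gclm and Nqo1 the counting intervals of PS19 and WT overlapped, so their first place is not resolved by those intervals. The share of all genes with the same order was not computed. The ratio of the highest to the lowest library ran from 1.24 (Gclm) to 2.42 (Prdx6), with Nqo1 at 1.72 and Gpx1 at 1.70 the next largest.

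**Figure D1:**
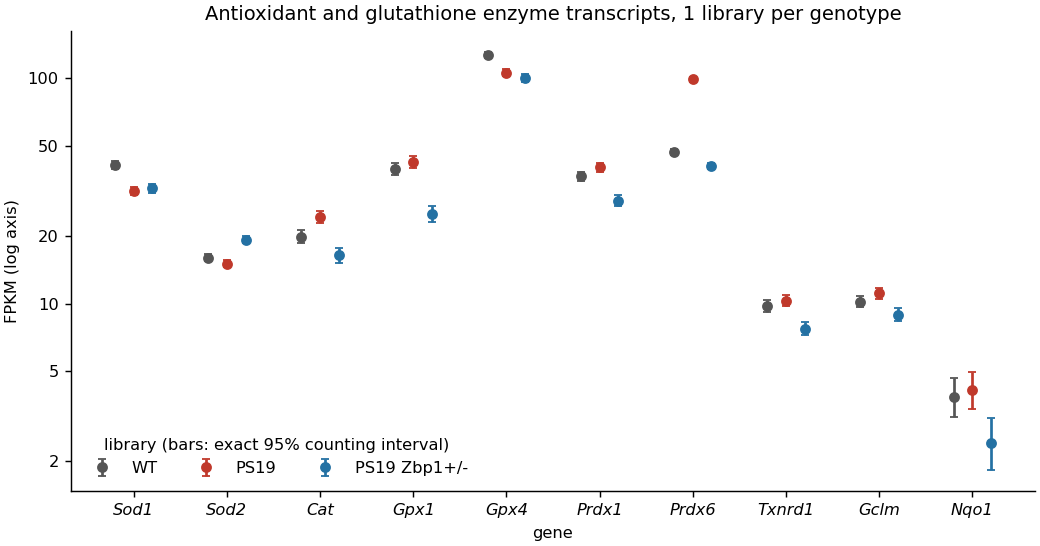
FPKM of the 10 genes in each of the 3 libraries, on a log axis, with exact 95% counting intervals as bars. Prdx6 in PS19 stands far above its WT and PS19 Zbp1+/- values, while the other genes lie within narrower ranges.

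The cytosolic copper-zinc dismutase Sod1 (chr16:90220754-90226329) was at 41.2 FPKM (WT), 31.6 (PS19) and 32.5 (PS19 Zbp1+/-), from 2822, 2166 and 2040 reads. WT was high, and the counting intervals of the 2 PS19 libraries overlapped. The mitochondrial manganese dismutase Sod2 (chr17:13006846-13040063) was at 16.0, 15.0 and 19.2 FPKM in the same order. Here PS19 Zbp1+/- was high. The intervals of WT and PS19 overlapped, although the interval of the PS19 to WT read ratio, 0.892 to 0.993, excluded 1.

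Catalase, the peroxisomal enzyme that splits hydrogen peroxide (Cat, chr2:103453849-103485160), was at 19.8 FPKM (WT), 24.2 (PS19) and 16.4 (PS19 Zbp1+/-). Its 892, 1095 and 677 reads gave intervals that did not overlap between any libraries. Gpx1 (chr9:108338903-108340343), the cytosolic glutathione peroxidase, was at 39.7, 42.5 and 24.9 FPKM. WT and PS19 overlapped, and PS19 Zbp1+/- lay below both. Gpx4 (chr10:80047166-80056439), which reduces lipid peroxides and blocks ferroptosis, was at 127, 106 and 100.2 FPKM from 3764, 3162 and 2733 reads. It was high in WT. The PS19 and PS19 Zbp1+/- intervals overlapped, although the interval of the PS19 Zbp1+/- to PS19 read ratio, 0.897 to 0.994, excluded 1.

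Prdx6 (chr1:161240112-161251219) is a peroxiredoxin that uses glutathione and also has phospholipase activity. It was at 47.1 FPKM (WT), 98.9 (PS19) and 40.8 (PS19 Zbp1+/-), from 3908, 8212 and 3102 reads. PS19 was high by a wide margin, and no intervals overlapped. The thioredoxin-dependent Prdx1 (chr4:116685544-116700822) kept the same order over a smaller range, at 36.8, 40.2 and 28.6 FPKM.

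Txnrd1 (chr10:82833951-82897712), the cytosolic thioredoxin reductase, was at 9.75 FPKM (WT), 10.3 (PS19) and 7.73 (PS19 Zbp1+/-). Gclm (chr3:122245557-122270732), the modifier subunit of glutamate-cysteine ligase, was at 10.2, 11.1 and 8.93 FPKM. Nqo1 (chr8:107388225-107403206), a quinone reductase often used as a readout of Nrf2, was at 3.84, 4.13 and 2.40 FPKM. In each of these 3 genes WT and PS19 overlapped and PS19 Zbp1+/- was below them. For Gclm the interval of the PS19 to WT read ratio, 1.001 to 1.18, nevertheless excluded 1. Nqo1 rested on 103, 111 and 59 reads, the fewest of the set.

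Between genes, the FPKM order in WT was Gpx4, Prdx6, Sod1, Gpx1, Prdx1, Cat, Sod2, Gclm, Txnrd1, Nqo1, but it depends on the length by which reads are divided. The deposited length counts every annotated exon: for Sod1 it is 3970 bases, that of a non-coding transcript, against 641 bases for its main coding transcript (the principal isoform of the annotation). Per kilobase of coding transcript, on the same scale of library size, Sod1 reached 255 in WT and moved to the top, above Gpx4 at 227 and Prdx6 at 94.9. On that scale Prdx6 led in PS19 at 199, with Sod1 at 195 and Gpx4 at 191. Ratios of a gene between libraries do not involve its length.

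**Figure D2:**
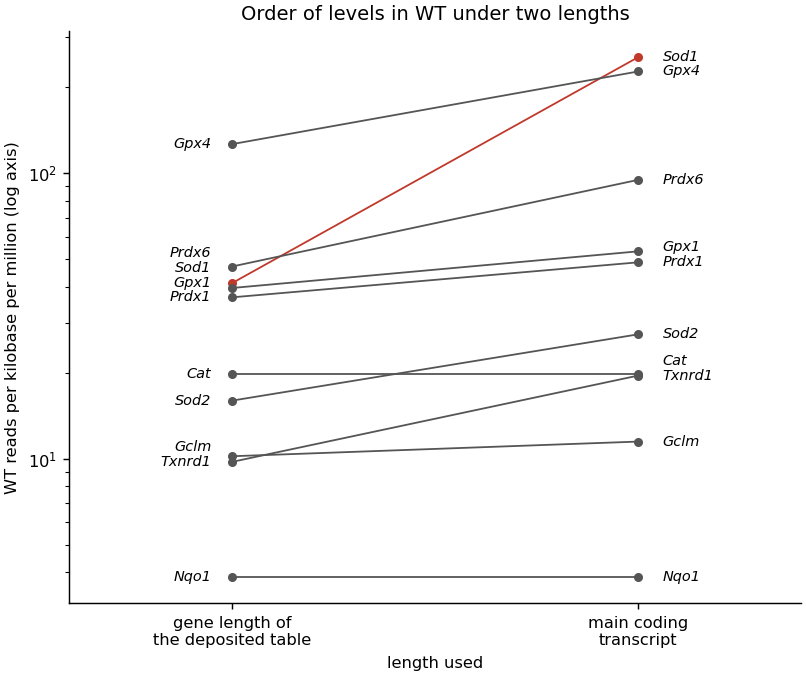
WT levels of the 10 genes per kilobase of the deposited gene length (left) and per kilobase of the main coding transcript (right), on a log axis, 1 line per gene with Sod1 in red. Sod1 moves the farthest between the scales, by 6.19-fold, while Cat and Nqo1 have the same length on both.

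PS19 against WT asks how the tau transgene goes with the expression of these enzymes. Of the 10, Prdx6 was more than 2-fold higher in the PS19 library, and the other 9 differed by less than 1.5-fold. Calls at 1.5-fold were made for 6.34% (higher) and 2.71% (lower) of all genes tested. Catalase was the next highest, and Sod1 and Gpx4 were lower. The rest lay within 10% of WT. With 1 library per genotype no test between genotypes exists, and the intervals given are exact Clopper-Pearson intervals for counting error only, without the spread between mice.

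Prdx6 had a PS19 to WT read ratio of 2.10 (95% interval 2.02 to 2.18) and a difference of 1.05 in log2(FPKM + 1). It was the single gene of the set called at least 2-fold higher on that scale, a call made for 2.2% of 12703 protein-coding genes with FPKM of at least 1 in either library. None of the 10 was called at least 2-fold lower, against 0.291% of the 12703 genes. Prdx6 stood at percentile 98.0 of all differences.

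Cat had a PS19 to WT ratio of 1.23 (1.12 to 1.34), at percentile 82.7. Prdx1 was at 1.09 (1.03 to 1.16) and Gclm at 1.09 (1.001 to 1.18). For Gpx1 the ratio was 1.07 (0.982 to 1.17), for Nqo1 1.08 (0.815 to 1.42) and for Txnrd1 1.05 (0.973 to 1.14), so these 3 intervals include 1. The log2 differences of these small ratios moved with the settings, from 0.11 to between 0.01 and 0.24 for Gclm and from 0.10 to as much as 0.28 for Gpx1. For Nqo1 the interval leaves room for a difference of up to 1.42-fold, which its few reads could not resolve.

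Sod1 was lower in PS19, at a ratio of 0.766 (0.724 to 0.810) and percentile 10.4. Gpx4 was also lower at 0.838 (0.799 to 0.879), although its log2 difference of -0.25 became 0.01 after a correction for GC content and gene length. Sod2 was at 0.941 (0.892 to 0.993), and its log2 difference of -0.08 became 0.04 when values were rescaled to TPM. The interval lay above 1 for 4 of the 10 genes and below 1 for 3, where 28.3% and 32.7% of all 12703 genes did. By any amount, 7 of the 10 were higher and 3 lower, against 46.3% and 53.7% of all genes. The median log2 difference was 0.09 over the set and -0.03 over all genes tested (interquartile range -0.21 to 0.18). Apart from Prdx6, the set lay between percentiles 10.4 and 82.7 of all genes.

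**Figure D3:**
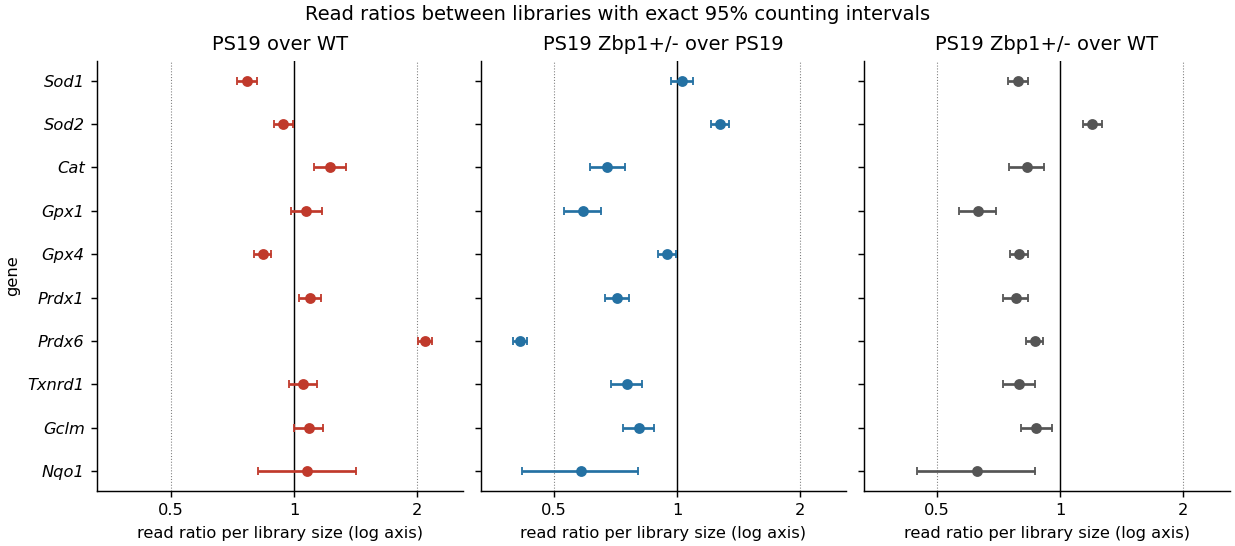
Read ratios of the 10 genes in the 3 comparisons (log axis), with exact 95% counting intervals, a line at 1 and dotted lines at 0.5 and 2. In PS19 against WT only Prdx6 passes 2-fold. In PS19 Zbp1+/- against PS19 the intervals of 8 genes lie below 1, as for 32.6% of all genes tested.

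The comparison of PS19 Zbp1+/- with PS19 asks how these genes differ when a Zbp1 allele is removed from the tau model. In the PS19 Zbp1+/- library 8 of the 10 genes had intervals below 1, where 32.6% of 12772 genes did. Prdx6 was at less than 0.5 of its PS19 level and Nqo1, Gpx1, Cat and Prdx1 were at 0.581 to 0.713 of theirs. Sod2 was higher, and Sod1 was about level. This comparison uses the same PS19 library as the previous one, so a gene that happened to be high in it would appear in both.

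Prdx6 had a ratio of 0.413 (0.396 to 0.430), a log2 difference of -1.26 at percentile 2.90. It was the 1 gene of 10 called at least 2-fold lower, where 5.16% of 12772 genes were. At 1.5-fold, 3 of the 10 were called lower, Prdx6, Gpx1 and Nqo1, where 12.1% of all genes were. None was called at least 2-fold higher, against 2% of all genes, or at least 1.5-fold higher, against 9.37%.

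Gpx1 was at 0.587 (0.529 to 0.650) of PS19, with a log2 difference of -0.75 that reached -1.05, past 2-fold, on the TPM scale. Nqo1 was at 0.581 (0.416 to 0.803). Cat was at 0.675 (0.613 to 0.744), Prdx1 at 0.713 (0.665 to 0.763), Txnrd1 at 0.752 (0.689 to 0.821) and Gclm at 0.805 (0.737 to 0.878). Gpx4 was at 0.944 (0.897 to 0.994), and its log2 difference of -0.08 was larger under other settings, at -0.37 with TPM, -0.27 with total reads and -0.30 after correction for GC content and length. Under the same alternatives Gclm ranged from -0.58 to -0.14 around -0.29, and Txnrd1 reached -0.68 from -0.37.

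Sod2 was at 1.27 (1.21 to 1.34) and stood at percentile 76.5, but its log2 difference of 0.33 was 0.06 with TPM and 0.15 with total reads. Sod1 was at 1.03 (0.968 to 1.09), and its log2 difference of 0.04 was negative under 3 other scalings, the lowest being -0.24 on the TPM scale. The counts of 8 intervals below 1 and 1 above compare with 32.6% and 39% of the 12772 genes. By any amount, 8 were lower and 2 higher, against 46.3% and 53.7%. The median log2 difference was -0.42 over the set and 0.04 over all genes (interquartile range -0.28 to 0.31), so the set's median lay below the lower quartile of all genes.

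**Figure D4:**
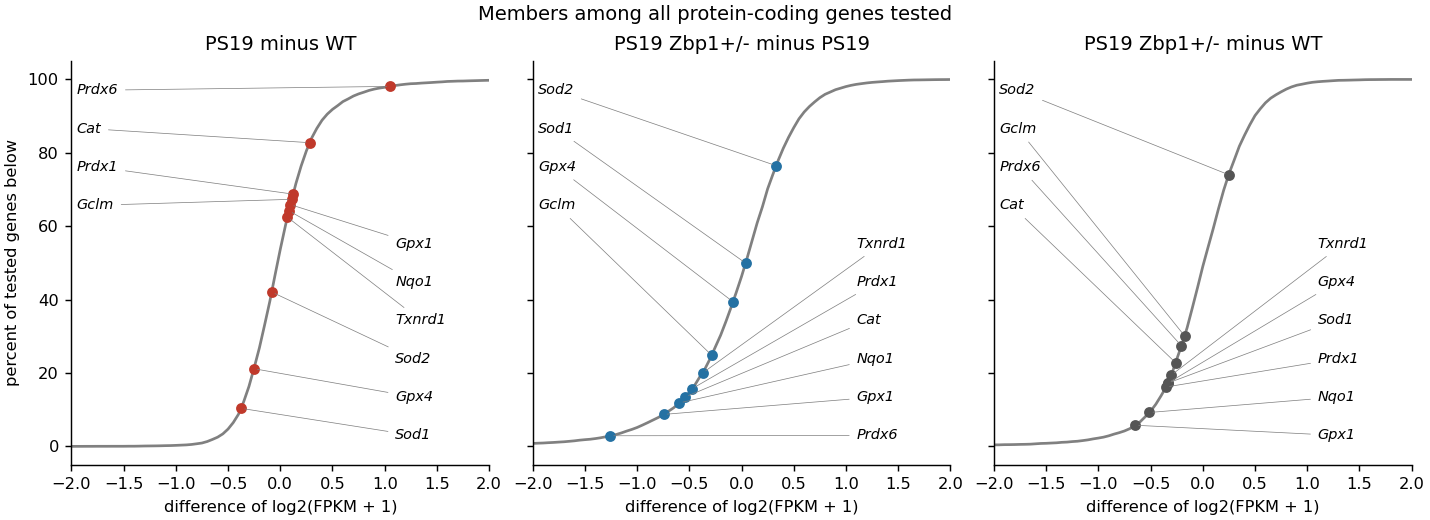
Cumulative share of protein-coding genes by difference in log2(FPKM + 1) in the 3 comparisons, with the 10 genes marked on the curve. In PS19 Zbp1+/- against PS19 most of the set sits on the left of the curve, Prdx6 farthest at percentile 2.90.

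Between PS19 Zbp1+/- and WT, 9 of the 10 genes were lower and Sod2 was higher, against 49% and 51% of all genes tested, and none reached 2-fold in either direction. The shares of 12436 genes that did were 1.07% (higher) and 2.28% (lower). Gpx1 was at 0.629 (0.566 to 0.698) of WT. It was the 1 gene called at least 1.5-fold lower on the scale of log2(FPKM + 1), where 7.12% of genes were. None was called 1.5-fold higher, against 6.71%. Nqo1 was at 0.624 (0.446 to 0.868), with a log2 difference of -0.51 that ranged from -0.76 to -0.23 over the alternatives. Its read ratio was as low as that of Gpx1, but it was not called, since adding 1 to FPKM shrinks differences at low levels.

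The remaining genes were closer to WT. Prdx1 was at 0.779 (0.726 to 0.835), and its log2 difference of -0.35 was -0.12 after correction for GC content and length. Sod1 was at 0.788 (0.744 to 0.835), Gpx4 at 0.792 (0.753 to 0.832) and Txnrd1 at 0.793 (0.726 to 0.866). Cat was at 0.827 (0.748 to 0.915), Prdx6 at 0.865 (0.825 to 0.907) and Gclm at 0.875 (0.800 to 0.956). Sod2 was at 1.20 (1.14 to 1.26), an interval above 1 as for 35.3% of all genes, with a log2 difference of 0.25 that was 0.10 at its lowest. The log2 difference of Prdx6, -0.20, ranged from -0.36 to -0.11. All 9 intervals of the lower genes lay below 1, where 31.3% of all genes had such an interval, and the set's median log2 difference was -0.32 against 0.01 over all genes. Prdx6, 2.10-fold above WT in PS19, was thus slightly below WT in PS19 Zbp1+/-.

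Among the regulators of the pathway, Nfe2l2, which encodes Nrf2, was at 6.49 FPKM (WT), 9.55 (PS19) and 2.15 (PS19 Zbp1+/-), from 425, 627 and 129 reads. PS19 was 1.47-fold WT (1.30 to 1.67), and PS19 Zbp1+/- was at 0.225 (0.184 to 0.272) of PS19. Its order over the libraries was that of Prdx6 and 6 other genes of the set, an order whose share among all genes was not computed. A link between Nfe2l2 and these genes was not tested. Keap1, the adaptor that targets Nrf2 for degradation, had another order, at 12.5, 13.4 and 17.3 FPKM. Bach1, a repressor at antioxidant response elements, was at 1.89, 2.78 and 2.30 FPKM, and Maff, a small Maf partner, at 0.782, 1.56 and 1.07. Of the 12 regulators listed, all were tested, none was 2-fold apart between PS19 and WT, and Nfe2l2 was the 1 called lower in PS19 Zbp1+/- against PS19. In PS19 against WT, 2.2% of all genes were called 2-fold higher and 0.291% lower. In PS19 Zbp1+/- the shares were 2% and 5.16% against PS19, and 1.07% and 2.28% against WT. The same shares apply to the lists below. The list's median differences, 0.03, 0.05 and 0.03 in the 3 comparisons, took the other sign under some scalings.

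Of 19 tested Nrf2 targets outside the set, 1 was at least 2-fold higher in PS19 than in WT, where 2.2% of all genes were. In PS19 Zbp1+/- against PS19, 3 of the 19 were called lower, where 5.16% of all genes were. Hmox1, the heme-degrading oxygenase, was at 3.18, 9.15 and 2.38 FPKM in WT, PS19 and PS19 Zbp1+/-, which is 2.88-fold higher (2.28 to 3.67) in PS19 than in WT. Ftl1, the ferritin light chain, was at 87.0, 114 and 43.2 FPKM. Ephx1, an epoxide hydrolase, was at 25.2, 29.2 and 8.68 FPKM, lowest in PS19 Zbp1+/-. Srxn1, which repairs overoxidised peroxiredoxins, was at 23.5, 27.6 and 28.6 FPKM and was not low in PS19 Zbp1+/-. The list's medians were 0.04, -0.16 and -0.13 in PS19 against WT, PS19 Zbp1+/- against PS19 and PS19 Zbp1+/- against WT.

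In glutathione supply, Gclc, the catalytic subunit partnered by Gclm, was at 15.2, 16.1 and 13.3 FPKM, and its ratio of 0.828 (0.754 to 0.909) in PS19 Zbp1+/- against PS19 lay beside the 0.805 of Gclm. Gss, glutathione synthetase, was at 3.91, 4.16 and 3.41 FPKM, and Gsr, glutathione reductase, at 11.6, 11.4 and 8.37. The cystine importer Slc7a11 was at 3.63, 4.71 and 1.79 FPKM. It was the 1 of 16 tested genes of this list called 2-fold lower in PS19 Zbp1+/- against PS19, where 5.16% of all genes were. Chac1, which breaks glutathione down, was instead high in PS19 Zbp1+/-, at 4.53, 4.35 and 7.91 FPKM. Oplah, which recycles 5-oxoproline, was at 5.84, 9.97 and 8.14, a PS19 to WT ratio of 1.71 (1.54 to 1.89). None of the 16 was called 2-fold apart in PS19 against WT, where 2.2% of all genes were called higher and 0.291% lower. The list's medians of -0.02, 0.07 and 0.03 were close to 0 and changed sign under other scalings.

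The other peroxidases and dismutases did not share the PS19 value of Prdx6. None of the 9 tested was called 2-fold higher or lower in PS19 against WT, where 2.2% and 0.291% of all genes were. The median of the 9 was -0.17. Prdx2 was at 62.7, 48.0 and 55.2 FPKM and Prdx5 at 86.4, 65.4 and 62.8, both high in WT. These were named after their values were seen, as abundant relatives of the set. Gpx8, a peroxidase of the endoplasmic reticulum, was at 8.35, 6.68 and 0.784 FPKM. It was the 1 called 2-fold lower in PS19 Zbp1+/-, where 5.16% of all genes were relative to PS19 and 2.28% relative to WT. Prdx4, at 5.12, 5.96 and 3.30, and Gpx7, at 2.16, 2.78 and 1.42, are also enzymes of the endoplasmic reticulum and were lowest in that library.

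In the thioredoxin and glutaredoxin list none of 19 genes was called 2-fold apart in PS19 against WT. Of all genes, 2.2% were called higher there and 0.291% lower. In PS19 Zbp1+/- against PS19, 2 of the 19 were called lower, where 5.16% of all genes were. Txn1, the cytosolic substrate of Txnrd1, was at 44.4, 31.0 and 32.2 FPKM, an order like that of Sod1. Txnip, which binds and inhibits thioredoxin, was at 15.1, 18.5 and 2.67 FPKM. Nxn, nucleoredoxin, was at 7.69, 8.91 and 3.43, and Txndc17 at 15.8, 12.5 and 8.26. The medians of this list were -0.13, 0.05 (negative under 3 other settings) and -0.09.

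Selenium supply bears on Gpx1, Gpx4 and Txnrd1, whose selenocysteine codons are printed above. Selenop, the selenium carrier, was at 66.5 FPKM (WT), 88.0 (PS19) and 68.5 (PS19 Zbp1+/-), and Sephs2, which makes the selenium donor, at 10.8, 9.19 and 14.7. Rpl30, a ribosomal protein that also binds the selenocysteine insertion element, was at 37.8, 27.5 and 18.0 FPKM. Of the 10 synthesis genes, none was 2-fold apart in either comparison with PS19. Rpl30 was the 1 called lower in PS19 Zbp1+/- against WT, at a ratio of 0.477 (0.440 to 0.517), where 2.28% of all genes were. Among 12 other selenoproteins, Dio3, a thyroid hormone deiodinase, was at 3.91, 1.20 and 13.0 FPKM. It was the 1 called lower in PS19 against WT, where 0.291% of all genes were. It was also the 1 called higher in PS19 Zbp1+/- against PS19, where 2% were. Selenow was at 756, 510 and 595 FPKM and Selenoh at 9.22, 7.06 and 11.5, both low in PS19. Of the 3 selenoproteins in the set, Gpx1 and Txnrd1 were highest in PS19 and lowest in PS19 Zbp1+/-. Selenop was also highest in PS19, but its PS19 Zbp1+/- value was about level with WT, at a ratio of 1.03 (0.981 to 1.08). Gpx4 was highest in WT and lowest in PS19 Zbp1+/-, as was Rpl30. A link between these genes was not tested.

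**Figure D5:**
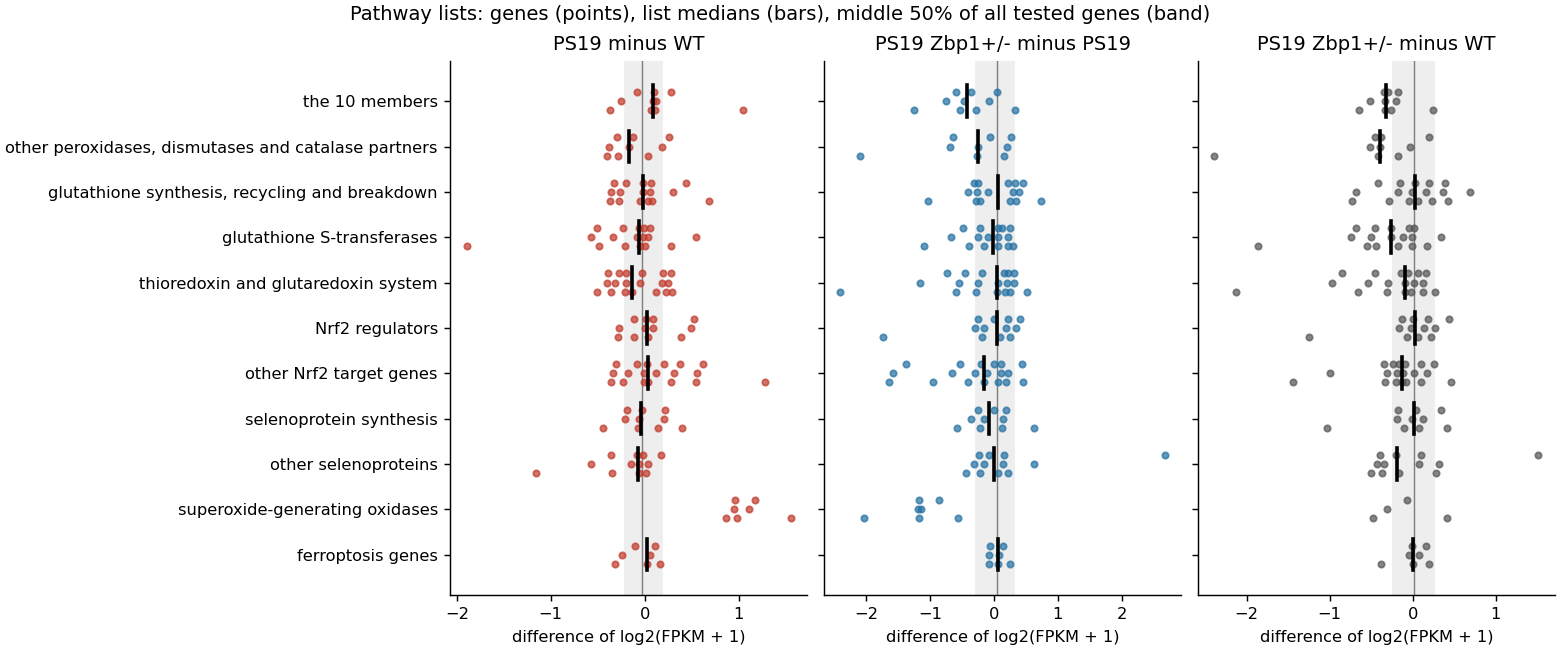
Differences in log2(FPKM + 1) of the tested genes of each pathway list in the 3 comparisons, with bars at list medians and a grey band for the middle 50% of all tested genes. The superoxide-generating oxidases have no bar, since 4 of their 7 tested genes reached FPKM 1 in PS19 alone.

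One source of superoxide is the phagocyte NADPH oxidase, an enzyme complex of microglia in the brain. Its membrane subunit Cyba was at 6.30 FPKM (WT), 20.5 (PS19) and 4.26 (PS19 Zbp1+/-), a PS19 to WT ratio of 3.25 (2.63 to 4.05). Xdh, xanthine dehydrogenase, was at 1.15, 2.93 and 0.730 FPKM. The regulatory subunit Ncf4 had 7, 60 and 6 reads. Of the 7 tested genes of this list, 4 entered because they were high in PS19, so no summary of the list is read.

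Markers of several cell types also differed between the libraries. Microglial markers summed to 178 FPKM (WT), 627 (PS19) and 188 (PS19 Zbp1+/-). Of the 10, 7 were at least 2-fold higher in PS19 than in WT, where 2.2% of all genes were. In PS19 Zbp1+/- against PS19, 7 of 10 were called lower, where 5.16% of all genes were. The microglial markers did not move alike: C1qa was at 48.0, 205 and 39.4 FPKM and P2ry12 at 11.2, 10.1 and 8.66. Astrocyte markers summed to 592, 1463 and 718 FPKM, with 2 of 10 called in each of these comparisons. The 2 called were Gfap, at 98.4, 768 and 112 FPKM, and Aqp4, at 22.2, 62.2 and 17.0, and Gfap alone made up 768 of the 1463 in PS19. Aldoc was highest in PS19 Zbp1+/-, at 202, 239 and 295 FPKM, and Fgfr3 was at 18.0, 20.6 and 18.9. Oligodendrocyte markers summed to 922, 1649 and 599 FPKM, and 10 of 10 were called lower in PS19 Zbp1+/- against PS19. No marker of these 3 lists was at 0 in a library. The single markers given here were picked after their values were seen.

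Neuronal markers summed to 1140, 1035 and 1445 FPKM, and endothelial markers to 102, 120 and 97.2. Within both lists the markers did not move alike in PS19 Zbp1+/- against PS19, where 53.7% of all genes were higher and 46.3% lower. Of 10 neuronal markers 7 were higher and 3 lower, with ratios of 2.15 for Slc17a7 and 0.547 for Prox1. Of 9 tested endothelial markers 2 were higher and 7 lower, with ratios of 1.995 for Cldn5 and 0.455 for Slc2a1. These single markers were also picked after their values were seen. Of 7 red blood cell markers measured, the sum was 19.1, 15.9 and 3.44 FPKM, with 1, 1 and 2 of them at 0. The part of these cell types in the values of Prdx6 and the other enzymes was not tested. In bulk tissue, fewer cells of a type and less RNA per cell cannot be told apart.

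Reads counted for copies of the genes were small in number except for Gpx4. Its pseudogene Gpx4-ps2, which is 99.6% identical over 552 coding bases, was given 649, 527 and 589 reads, so that Gpx4 held 85.3%, 85.7% and 82.3% of the reads of the pair. How reads that match both a gene and its copy were handled is not given in the sources used here. These shares therefore do not bound the uncertainty of the Gpx4 level, nor of the other genes with copies. Sod1 held at least 96.0% of reads with its copy Gm8566, and Prdx1 at least 98.4% with its 3 copies. Prdx6b, a close relative of Prdx6, had 0 reads in all 3 libraries. Sod1 overlaps Scaf4 (676, 820 and 852 reads) and Gclm overlaps Gm17494 (101, 60 and 53 reads), each on the opposite strand. Whether counting used strand is not given in the sources used here, so how reads in these overlaps were assigned, or whether they were counted, cannot be told.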

How the data were processed

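The authors deposited FPKM values for 54532 genes, 1 column per library. RNA came from TRIzol extraction and libraries from an NEB Next Ultra kit, per the labels' protocols. Per the submitters' processing notes, Trim Galore 0.6.5, STAR 2.5.3a, featureCounts 2.0.4 and build mm39 were used; the positions in the deposited table nevertheless equal GENCODE M21 (GRCm38) in 98.3% of the 54409 IDs that could be looked up and in all 10 enzymes, and are given as the table holds them. Annotation release and strandedness are not given in the sources used here.

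Multiplying FPKM by gene length gave whole reads in 100% of values (tolerance 0.02 reads). Differences are of log2(FPKM + 1), over protein-coding genes that reached FPKM 1 in 1 or both libraries. A call needs 1 log2 unit (2-fold), and a second rule uses 1.5-fold. All 10 enzymes passed the filter in each comparison. Read ratios are per implied library size. Their exact 95% intervals compare libraries, not genotypes, and hold counting error alone; without molecular identifiers, reads are not independent molecules. A count model across genotypes needs replicates and was not run. The scripts were tested on simulated data. The 10 enzymes and the 10 pathway lists (150 genes) and 7 cell type lists were chosen with earlier results of these data known. Named in every case were the enzymes, Zbp1, 12 set pathway genes and, per pathway list, the 3 genes with the largest range over the libraries. Copies were sought by blastn 2.17.0 with coding sequences at 90% identity or more over at least 150 bases, for the 10 enzymes only. Software was matplotlib 3.10.9, scipy 1.17.1, pandas 2.3.3, numpy 2.4.6 and Python 3.11.15. Alternatives covered the pseudocount, low-value filter, scaling (TPM, total reads, median-centred), biotype and call threshold. Correction for GC content and length, read ratios and coding transcript length were chosen after seeing the data.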

Additional observations from a re-analysis of the deposited data

How the results depend on the processing

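No paired analysis was possible because each genotype has 1 library with no replicate number, and no library could be left out for the same reason. TPM moved the median difference of all tested genes by 0.12 (PS19 against WT), -0.27 (PS19 Zbp1+/- against PS19) and -0.15 (PS19 Zbp1+/- against WT), and total reads by 0.03, -0.16 and -0.13. With TPM the median over the 10 enzymes was 0.22, -0.72 and -0.48 in the same comparisons. With total reads it was -0.60 and -0.46 in those with PS19 Zbp1+/-, and with GC content and length correction -0.20 in PS19 Zbp1+/- against WT. Enzymes called lower in PS19 Zbp1+/- against PS19 numbered 2 with TPM and 3 at 1.5-fold, and against WT 1 at 1.5-fold. Of called genes in PS19 Zbp1+/- against PS19, 27.9% were higher, and 11.1% with TPM, 14.7% with total reads, 16.9% with GC and length correction, 44.0% at a mean FPKM of at least 5 and 43.7% at 1.5-fold. Against WT the share was 32.0%, and 19.0% with TPM, 17.3% with total reads, 52.7% at a mean FPKM of at least 5 and 48.5% at 1.5-fold. In PS19 against WT it was 88.3%, and 74.5% with genes of every biotype and 70.1% at 1.5-fold. Single enzymes kept their sign in all but 5 of 267 alternative values, those given beside Gpx4, Sod2 and Sod1, and 55 moved by more than their counting interval. Medians of pathway lists had the other sign in 39 of 300. At a mean FPKM of at least 5, Nqo1 was not tested. Depth limits Nqo1 most, at 59 to 111 reads.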

Other observations

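The tested genes of the list for ferroptosis, the lipid peroxide death that Gpx4 blocks, were close to level. None of 7 tested was called 2-fold apart in any comparison. The list leaves out Slc7a11, Ftl1 and Hmox1, which were counted in lists above. Their ratios in PS19 Zbp1+/- against PS19 were 0.380, 0.380 and 0.260, each called 2-fold lower. Gch1, on the list but below the FPKM filter, had a ratio of 0.212 (0.0798 to 0.484) there. It rested on 36 and 7 reads in PS19 and PS19 Zbp1+/-. Dhodh, a mitochondrial dehydrogenase, was at 3.81, 2.86 and 2.68 FPKM in the WT, PS19 and PS19 Zbp1+/- libraries. Acsl4, which supplies oxidisable phospholipids, was at 18.1, 15.2 and 18.2 FPKM, and Lpcat3 at 5.52, 6.05 and 6.48. The list's median differences were 0.02, 0.06 and 0.00 in PS19 against WT, PS19 Zbp1+/- against PS19 and PS19 Zbp1+/- against WT, and each took the other sign under at least 1 alternative.

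Of 17 tested glutathione S-transferases, which couple glutathione to reactive compounds, 1 was called 2-fold lower in PS19 than in WT, where 0.291% of all genes were. That was Gstp2, with 51, 4 and 4 reads, a member of a family of similar genes, for which shared reads were not examined here, so its value is uncertain. Mgst1, a microsomal transferase, had 168, 263 and 95 reads in the same order of libraries. It was the 1 of 16 called lower in PS19 Zbp1+/- than in PS19, where 5.16% of all genes were. Gstm2 had 58, 33 and 21 reads. The list's medians were -0.06, -0.02 and -0.26. The first and the second took the other sign under other settings.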
